A study of Mus musculus with 2 samples.

Results

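The genes described here make, coat and break down triglyceride in the liver: Gpam, Lpin1, Lpin2, Dgat1 and Dgat2 of triglyceride synthesis, Plin2, Cideb and Cidec of the lipid droplet, and Pnpla2 and Mgll of lipolysis. They were chosen by name, and each probe set whose platform annotation gives 1 of these symbols alone was taken. All 10 genes were found, with 19 of the 22690 probe sets on the array. A total of 9 of the 10 genes counted as measured, of 5911 measured genes among 12393 in all.

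The samples were 2 Affymetrix arrays of liver RNA from female mice labelled as lacking apolipoprotein E, 1 array for each diet. The Apoe signal, given further below, went against this label. In the first diet, chow held 10% (w/w) of an olive oil that was enriched in the olive triterpene maslinic acid; in the second, it held 10% (w/w) of plain olive oil. Both were fed for 4 weeks. Per the study's design text the 12 mice were 2 months old, on a C57BL/6J background and homozygous for the apoE knockout in both diet groups, with 6 mice per diet. The labels do not say how many of those mice are behind each array. The comparison, as labelled, addresses which liver genes differ when the oil carries maslinic acid.

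With 1 array per diet there is no replicate, so no difference below has a test, an error or a p-value, and each is given by its size alone. Precision is limited by the number of arrays. Values are MAS5 signals on the deposited scale, in arbitrary units, and ratios are log2(maslinic acid / olive oil) between the arrays as labelled. A signal under 40.0 was treated as lying at the floor, and a probe set counted as measured if it reached 80.0 on at least 1 array. Where a gene had several probe sets, the one with the highest mean signal stands for the gene, and for the 10 genes described here every other one is given beside it.

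Hepatocytes build triglyceride in steps. A fatty acyl chain is placed on glycerol 3-phosphate, a further chain gives phosphatidate, lipins remove the phosphate to leave diacylglycerol, and a diacylglycerol acyltransferase adds the last chain. The product is stored in droplets coated with perilipins and CIDE proteins or is loaded onto very low density lipoprotein. Adipose triglyceride lipase and monoacylglycerol lipase act at the first and last steps of its breakdown. In liver this balance sets how much fat is stored, burned or secreted.

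The promoters are shown first because regulators of fat synthesis that were on the array, among them Srebf1, Mlxipl, Usf1 and Usf2, are known to bind E-boxes or motifs built from them. RefSeq windows of GRCm38.p6, running from 250 bases before to 50 bases after each annotated start, existed for 8 of the 10 genes, with 13 windows. The palindromic E-box CACGTG lay in the windows of 3 of these 8 genes, Mgll, Lpin2 and Plin2, and of 8.09% of all 27025 genes with a window. By window it lay in 3 of the 13 and in 7.15% of all 32851. Some genes have several windows, and enrichment was not tested. In Plin2 the E-box spanned the annotated start itself. The stretches before the start of Mgll (chr6:88724341-88724400, plus strand) and Lpin2 (chr17:71183496-71183531, plus strand) read as follows, with the E-box in capitals.
Mgll: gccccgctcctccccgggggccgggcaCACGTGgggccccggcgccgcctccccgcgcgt
Lpin2: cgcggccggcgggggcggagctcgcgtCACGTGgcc
The E-box began 44 bases before the start in Mgll and 9 bases before it in Lpin2. The sterol regulatory element TCACCCCAC, searched on both strands as the E-box was, lay in 0 of the 13 windows and in 0.551% of all windows. A match is a description of these letters only.

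None of the 9 measured genes was 1.5-fold apart between the arrays. At that size the count was 0 of 9, while 3.05% of all measured genes were at least 1.5-fold apart in either direction. At 2-fold it was again 0 of 9, against 0.609% of all measured genes. At 1.2-fold, a size chosen after the values were seen, 1 of 9 genes passed, Dgat1, while 19.0% of all measured genes did. On the array labelled maslinic acid 4 genes were higher and 5 lower, and their median log2 ratio was -0.0042. Over all measured genes 48.0% were higher and 52.0% lower, with a median of -0.0098. The median size of the log2 ratio, whatever its sign, was 0.049 for these genes and 0.12 for all measured genes. These values and shares are not matched for signal. A mean signal under 200 was found for 2430 of the 5911 measured genes and for 0 of these 9.

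**Figure D1:**
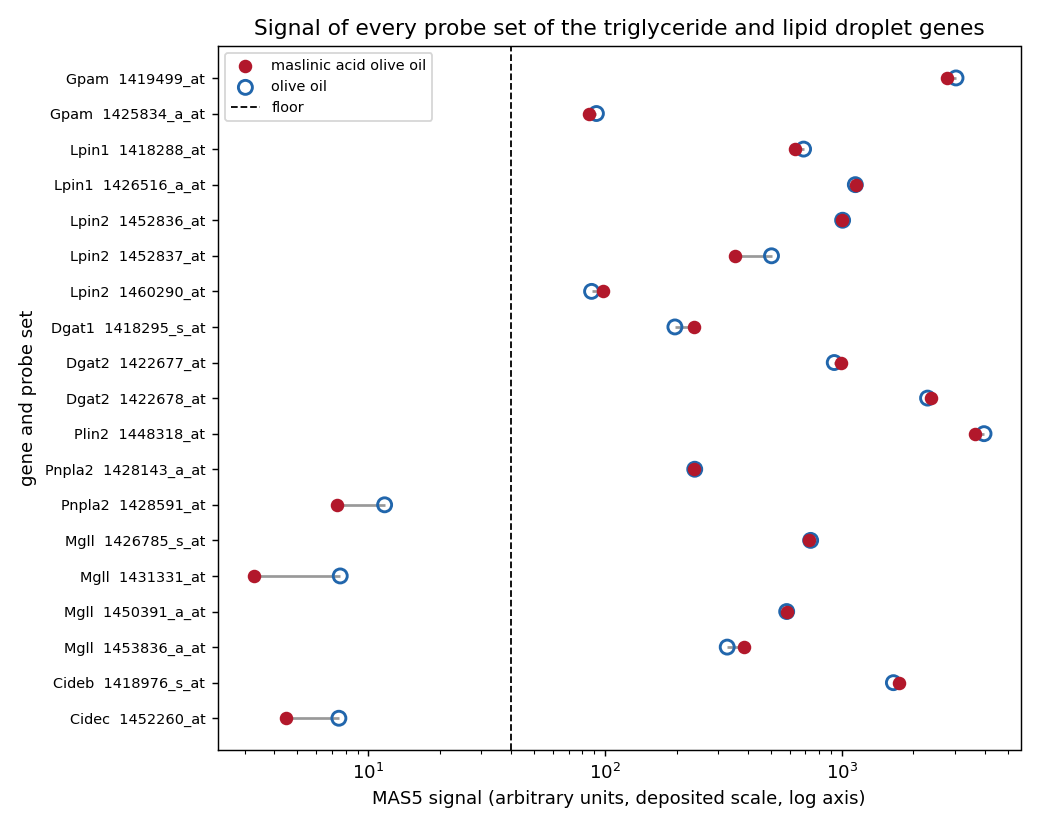
MAS5 signal of all 19 probe sets of the 10 genes on a log axis, with a filled point for the array labelled maslinic acid and an open point for the array labelled olive oil; the dashed line is the floor at 40.0. The points of a pair nearly coincide for most probe sets above the floor, and both points of the single Cidec probe set and of 1 probe set each of Pnpla2 and Mgll lie under it.

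Gpam encodes the mitochondrial glycerol-3-phosphate acyltransferase that starts glycerolipid synthesis. Its main probe set, 1419499_at, read 2762 on the array labelled maslinic acid, against 3024.5 on the array labelled olive oil. The log2 ratio was -0.13. Its dim probe set, 1425834_a_at, read 85.0 under maslinic acid and 91.7 under olive oil, a log2 ratio of -0.11. Both probe sets were thus slightly lower under maslinic acid, within 1.10-fold.

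The lipins turn phosphatidate into diacylglycerol and also act as coregulators of transcription. Lpin1, the member best known as a fasting-responsive partner of PPAR alpha, read 1147.5 under maslinic acid and 1137 under olive oil with 1426516_a_at, a log2 ratio of 0.014. With 1418288_at it read 631 under maslinic acid and 687 under olive oil, a log2 ratio of -0.12, so its probe sets differed in sign.

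Lpin2, the lipin known to be abundant in liver, had the widest spread between probe sets. Probe set 1452836_at read 999 under maslinic acid and 1004 under olive oil, a log2 ratio of -0.0083. Probe set 1452837_at read 354.0 under maslinic acid and 503 under olive oil, a log2 ratio of -0.51 or 1.42-fold lower. The dim 1460290_at read 97.8 under maslinic acid and 87.5 under olive oil, a log2 ratio of 0.16. One probe set of Lpin2 was therefore lower, another the same within 1% and the remaining one slightly higher, a range of 0.67 in log2. The value of 1452837_at was the only one of the 16 measured probe sets of these genes outside the central 95% of measured genes, which ran from -0.48 to 0.49. Which transcripts each probe set reads was not examined.

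Dgat1 and Dgat2 encode unrelated enzymes that add the last acyl chain. Dgat1 read 237 on the array labelled maslinic acid, against 197 on the array labelled olive oil, a log2 ratio of 0.27 or 1.204-fold higher. This was the largest ratio among the 9 genes, and 81.6% of all measured genes lay closer to 0. It rests on 1 probe set, of the kind ending in _s_at that can read several transcripts.

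Dgat2 had 2 probe sets that both read slightly higher under maslinic acid. The main one, 1422678_at, read 2374 under maslinic acid and 2294 under olive oil, a log2 ratio of 0.049. The other, 1422677_at, read 992 under maslinic acid and 926 under olive oil, a log2 ratio of 0.0999. Both acyltransferases were thus higher by no more than 1.204-fold.

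Among droplet proteins, Plin2 (adipophilin) is the perilipin that coats droplets in hepatocytes and is commonly used as a sign of stored fat. Its single probe set read 3629 under maslinic acid and 3971 under olive oil, a log2 ratio of -0.13. Cideb, the CIDE protein of hepatocytes that takes part in lipidation of very low density lipoprotein, read 1745 under maslinic acid and 1646 under olive oil, a log2 ratio of 0.084. The probe sets of these genes differed in direction, and both stayed within 1.10-fold. Cideb, like Dgat1, rests on 1 probe set of the kind ending in _s_at.

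Cidec, also called Fsp27, promotes droplet fusion and is known to be induced in fatty liver. Its single probe set read 4.5 under maslinic acid and 7.5 under olive oil. Both lie under the floor of 40.0, so no ratio is given and no order can be read from them. Other values under the floor on both arrays came from probe set 1428591_at of Pnpla2, at 7.4 under maslinic acid and 11.7 under olive oil, and 1431331_at of Mgll, at 3.3 under maslinic acid and 7.6 under olive oil.

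Pnpla2 encodes adipose triglyceride lipase, which removes the first acyl chain. Its measured probe set, 1428143_a_at, read 237.8 under maslinic acid and 238.5 under olive oil, a log2 ratio of -0.0042. Of the 9 genes this one was the closest to equal. Mgll encodes monoacylglycerol lipase, which frees the last acyl chain and also degrades the endocannabinoid 2-arachidonoylglycerol.

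Mgll had 3 measured probe sets. With 1426785_s_at it read 722 under maslinic acid and 736 under olive oil, a log2 ratio of -0.027. With 1450391_a_at it read 586 under maslinic acid and 583 under olive oil, a log2 ratio of 0.0064. With 1453836_a_at it read 384 under maslinic acid and 327 under olive oil, a log2 ratio of 0.23. The brighter probe sets were nearly equal on both arrays, and the dimmest measured one was 1.17-fold higher under maslinic acid.

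**Figure D2:**
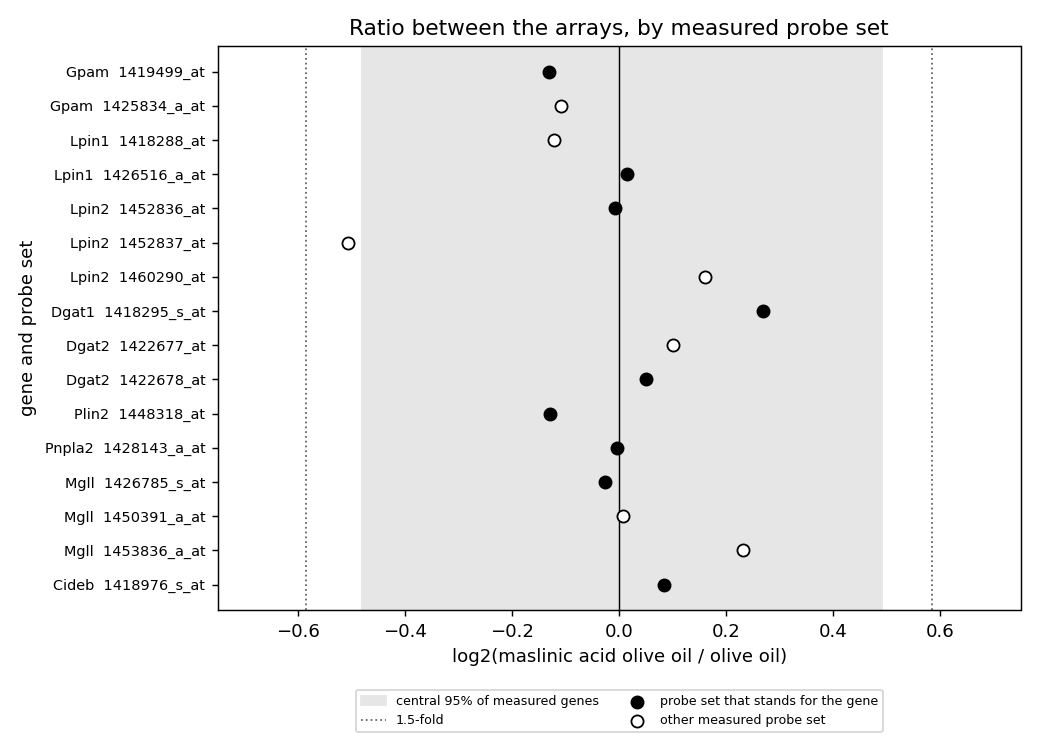
Log2(maslinic acid / olive oil) for the 16 measured probe sets; filled points are the probe sets that stand for their genes, the grey band is the central 95% of all measured genes and dotted lines mark 1.5-fold. All filled points lie inside the band, and 1452837_at of Lpin2 at -0.51 lies outside it.

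The one repeat measurement was that several probe sets read a gene, which is technical, as they share a hybridisation. Of these genes 5 had at least 2 measured probe sets, and in 3 of them, Lpin1, Lpin2 and Mgll, the sign differed between probe sets. The pooled within-gene SD of the ratio, in log2 units, was 0.20 over these 5 genes and 0.23 over the 1814 genes of the array with at least 2 measured probe sets. Among the 5 genes Lpin2 had the widest range, 0.67 in log2, and the next was 0.26 for Mgll. Apart from Dgat1, at 0.27, each of the 9 genes had a ratio smaller than either SD. Both SDs describe probe sets on the same pair of arrays, so they do not measure the spread between arrays.

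The ratio moved with signal strength over the whole array. Genes with a mean signal of at least 3000, of which there were 291, centred on a log2 ratio of -0.081 (median), with 75.6% lower under maslinic acid. Genes with a mean signal of 200 to 1000, 2508 in number, had a median of -0.0069. Plin2 lies in the first of these classes. With a loess trend of the ratio on signal removed, Plin2 lay at -0.080 and Gpam at -0.094, while Dgat1 stayed at 0.27. The part of this trend in the lower values of Plin2 and Gpam was not tested further.

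**Figure D3:**
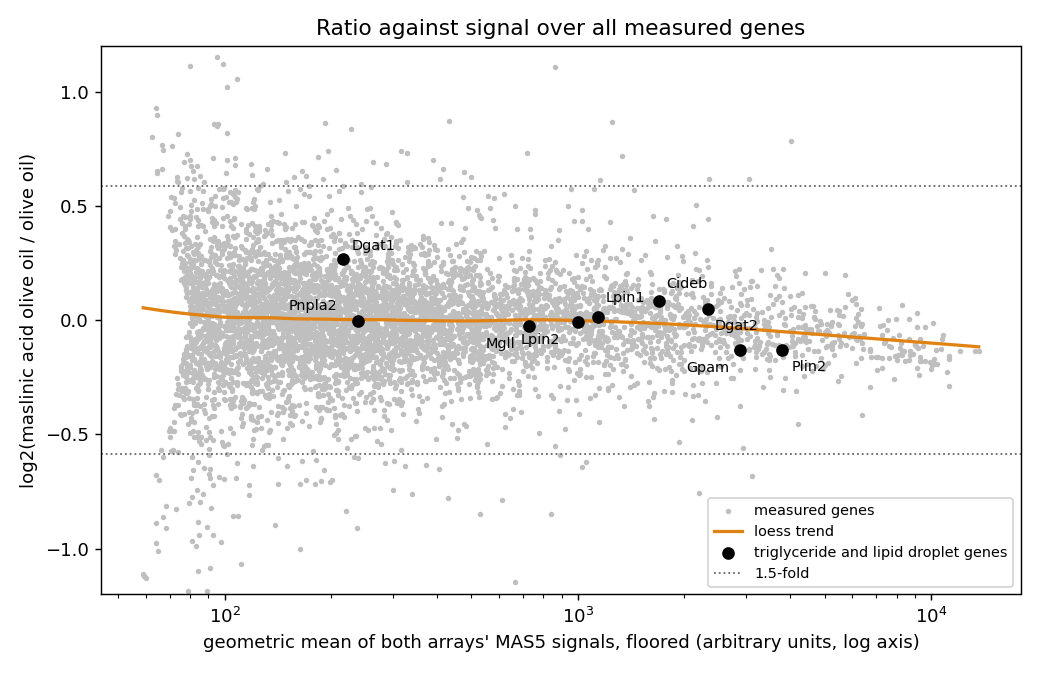
Log2(maslinic acid / olive oil) against the geometric mean signal of both arrays for the 5911 measured genes, with the loess trend, the 9 measured triglyceride and lipid droplet genes in black and dotted lines at 1.5-fold; 18 genes lie beyond the plotted range of 1.2 in log2. The black points lie inside the cloud of all genes, Dgat1 highest and Gpam and Plin2 lowest.

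The rest of the pathway was read from 6 further lists. They hold 84 genes, of which 70 had a probe set naming them alone and 54 were measured. On the array labelled maslinic acid 31 of the 54 were higher and 23 lower, with a median log2 ratio of 0.043. By the probe sets that stand for them, none was 1.5-fold apart, against 3.05% of all measured genes. Another measured probe set of Ces1d and another of Surf4 did pass that size, at 1.98 and 0.64.

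Other genes of glycerolipid synthesis had a median log2 ratio of -0.044 over 7 measured genes, 3 higher and 4 lower. The farthest from 0 were the lipid phosphate phosphatase genes, Plpp2 at 0.26, Plpp1 at -0.19 and Plpp3 at 0.17; their other measured probe sets gave -0.11 for Plpp1 and 0.073 for Plpp3. Lpin3, Mogat1 and Mogat2 were under the floor on both arrays. The measured acyltransferase genes of this list showed nothing larger than the phosphatases did. Agpat1 and Agpat5 did not reach the minimum signal, and 13 of the 19 genes listed were on the array, so the acyltransferase steps were read in part.

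Other droplet proteins had a median of 0.081 over 8 measured genes, 6 higher and 2 lower. Fitm1, a protein of droplet formation known mainly from muscle, read 125.7 under maslinic acid and 85.3 under olive oil, a log2 ratio of 0.56 and the highest of all 54 genes. Hsd17b11, a dehydrogenase found on droplets, lay at -0.35, and at -0.18 on its other probe set, and Plin5, the perilipin of oxidative tissues, at 0.26. Fitm1 is dim, and its value rests on 1 probe set.

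Other lipases and their partners had a median of 0.042 over 11 measured genes, 7 higher and 4 lower. Ces1g, a liver carboxylesterase, read 1917 under maslinic acid and 1399 under olive oil, a log2 ratio of 0.45. Ces1d, the carboxylesterase also known as triacylglycerol hydrolase, lay at 0.31 with the probe set that stands for it, and its 3 probe sets ranged from -0.046 to 1.98. The Ces1 genes are related to each other, and whether each probe set tells their transcripts apart was not examined.

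The partners of Pnpla2 stayed within 1.5-fold. G0s2, which inhibits adipose triglyceride lipase, lay at 0.15. Abhd5, its coactivator, named here outside the rule for named genes, lay at -0.14 with 1 probe set and at 0.33 with another. The probe sets of Abhd5 thus differed in sign.

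Genes of fatty acid supply and activation had a median of -0.019 over 11 measured genes, 4 higher and 7 lower. Fabp4 lay at 0.43, Fabp1, the fatty acid binding protein of hepatocytes, at -0.14 and Acsl4, an acyl-CoA synthetase, at 0.12. Their other measured probe sets gave 0.50 for Fabp4, -0.43 for Fabp1 and -0.13 for Acsl4. Genes of very low density lipoprotein assembly had a median of 0.11 over 7 measured genes, 5 higher and 2 lower, with Apob, its structural protein, at -0.29, Tm6sf2 at 0.16 and Surf4 at 0.14. The probe sets of Surf4 ranged from -0.19 to 0.64.

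Regulators had a median of 0.034 over 10 measured genes, 6 higher and 4 lower. Ppara, the receptor that drives fat oxidation, read 1187 under maslinic acid and 1541 under olive oil, a log2 ratio of -0.38. Srebf1, the activator of fat synthesis genes, read 1403 under maslinic acid and 1791 under olive oil, a log2 ratio of -0.35. Nr1h3, the liver X receptor that induces Srebf1, lay at 0.29. These were the farthest from 0 in the list, each with 1 probe set and each within 1.5-fold. Usf2, known as a protein that binds E-boxes, lay at -0.043, and Usf1 did not reach the minimum signal. Binding to the E-boxes shown above for Mgll and Lpin2 was not tested.

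**Figure D4:**
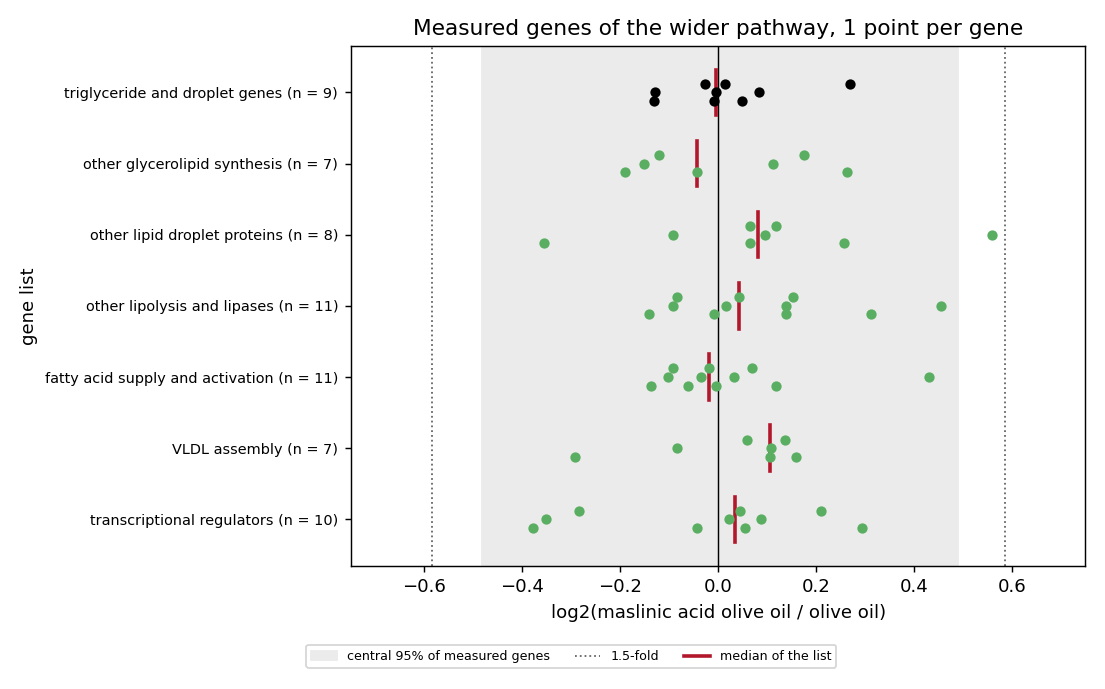
Log2(maslinic acid / olive oil) for each measured gene of the triglyceride and droplet genes (black) and of the 6 wider pathway lists (green), with the median of each list as a red bar, the central 95% of measured genes as a grey band and dotted lines at 1.5-fold. No point passes 1.5-fold, and Fitm1, at 0.56, is the only one beyond the band.

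Checks of the labels bear on every value above. Apoe, which both diets are labelled as lacking, read 7630 on the array labelled maslinic acid and 408 on the array labelled olive oil, 18.7-fold apart, so the signal goes against the label and each direction is between the arrays as labelled. With these arrays, a difference in diet and one in Apoe genotype or labelling cannot be told apart. Hepatocyte markers went with the liver label. By the probe sets that stand for them, all 10 measured ones were lower under maslinic acid, with a median of -0.17, among them Ttr at -0.23, Hnf4a at -0.22 and Alb at -0.21. Other probe sets did not all go the same way: another of Hnf4a lay at 0.64 and another of Tdo2 at 0.12. Most of these markers are bright, and of the 50 brightest genes on the array 47 were lower, with a median of -0.14. The summed signal of the 10 hepatocyte markers was 78846 under maslinic acid and 87806 under olive oil. Gpam and Plin2 lay in the same direction, and the part of hepatocyte content in their values was not tested. In bulk liver, fewer cells of a type and less RNA per cell cannot be told apart.

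Other cells that carry droplets were examined by their markers. Of the adipocyte markers 1 of 6 on the array was measured, Fabp4, which endothelial cells and macrophages also make, at 356 under maslinic acid and 264 under olive oil. Adipoq read 30.6 under maslinic acid and 41.0 under olive oil, and Lep, Retn, Cidea and Slc2a4 lay under the floor on both arrays. The summed signal of the 6 was 456.0 under maslinic acid and 352.0 under olive oil. Stellate cell markers had a median of 0.21 over 7 measured genes, 6 higher and 1 lower, with Acta2 at 0.35, Lum at 0.34 and Col1a2 at 0.21. The lower one was Dcn, the brightest of them, at -0.19, and the next brightest, Reln, lay at 0.0047. Over all 10 stellate markers on the array, those not measured included, the summed signals were 4352 under maslinic acid and 4379 under olive oil. Lrat, which defines the vitamin A-storing cell, was under the floor on both. The median over 12 markers of macrophages and Kupffer cells was 0.049, 7 higher and 5 lower, with summed signals of 12163 under maslinic acid and 12197 under olive oil, and Marco as the only one past 1.5-fold, at -2.00. The part of these cells in the ratios above was not tested.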

How the data were processed

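Liver RNA was measured on 1-colour Affymetrix arrays, 1 per diet. The deposited values are signal intensities per probe set on a linear scale, which the authors computed with MAS5 according to the submitters' processing notes. No source used here gives its version. Detection calls were not used here.

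Each array was multiplied by 2.50 to bring its 2% trimmed mean to 500. A floor of 100 was then set, and log2 ratios were taken. A gene counted as measured from 200 upward on at least 1 array. Control probe sets were left out, and 20380 probe sets named 1 gene, from GEO's platform annotation. No test was possible. The steps were tested on simulated data. Python 3.11.15 with pandas 2.3.3 and statsmodels 0.14.6 (loess span 0.3) was used.

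The genes and lists were chosen with earlier results of these data known. The text names all 10 genes, and of each other list every measured gene at least 1.5-fold apart and up to 3 farthest from 0. Usf2, Mlxipl, Usf1, Abhd5, Tdo2, Dcn, Reln and genes below the minimum signal were named outside that rule. The alternatives tried were the scaling (deposited, equal medians, quantile, loess), a floor of 50 or 200, a minimum of 0, 400 or 200 on the mean, the mean of all measured probe sets, and probe sets of the _x_at and _s_at kinds left out.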

Additional observations from a re-analysis of the deposited data

How the results depend on the processing

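Under all 11 alternatives 0 of the measured triglyceride and lipid droplet genes were 1.5-fold or 2-fold apart, and their median log2 ratio lay between -0.011 and -0.0021. Of 97 single-gene values 0 reached 1.5-fold, but many of them repeat the main value. The other floors and minimum signals could not move these ratios. The probe sets that stand for the measured genes lay above every such limit. The sign turned for Lpin1 (lowest -0.054) and Mgll (highest 0.070), in 2 alternatives each. With probe sets of the _x_at and _s_at kinds left out, Dgat1 and Cideb were not measured, leaving 7 genes. Cidec passed only with no minimum signal and lay at the floor on both arrays. Over all measured genes, those at least 2-fold apart numbered 36 and were 19 with a floor of 200, and those at least 1.5-fold apart numbered 180 and were 120. With a minimum of 400 the counts were 19 and 85 of 4168 measured genes. The shares fell as well, to 0.456% from 0.609% at 2-fold and to 2.04% from 3.05% at 1.5-fold. All 9 measured triglyceride and lipid droplet genes passed this minimum. The deposited scaling nearly repeats the one used, as the trimmed means were already equal. No paired analysis was possible because the diets share no replicate beyond their single arrays, and no array could be left out. Signals under the floor set a limit: nothing can be said of Cidec beyond its being dim on both arrays.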
